A study of Mus musculus with 6 samples.

Results

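The 6 chemokine genes described here, Ccl1, Ccl3, Ccl4, Ccl5, Ccl9 and Xcl1, encode secreted attractants that CD8 T cells are known to make. They were taken by gene name from a table of 13883 genes, and all 6 were found and passed the filter on low values that left 13804 genes tested. The RNA came from CD8 T cells of wild-type mouse spleen and lymph nodes, activated with antibodies to CD3 and CD28, which stand in for antigen and costimulation. In 1 group the cells were kept overnight with 20 mM DAHB, a compound the labels give only this short name, and in the other with 20 mM NaCl, the control. Each group had 3 samples of 100000 cells, all with the same batch label, and the comparison asked which mRNAs DAHB changed relative to the same concentration of NaCl. Whether replicates are separate mice or cultures is not stated in the labels, and the spread behind each p-value may thus be technical.

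Chemokines are small proteins that bind heparan-type sugars and G protein-coupled receptors and draw receptor-bearing cells along a gradient. Activated CD8 T cells release them within hours of antigen contact and so bring other lymphocytes, macrophages and dendritic cells to the site. Ccl3 and Ccl4 encode the macrophage inflammatory proteins, and Ccl5 encodes the protein also called RANTES. Xcl1 encodes lymphotactin, which attracts cross-presenting dendritic cells through XCR1. Ccl1 is the ligand of CCR8, and Ccl9, a gene of rodents, encodes a ligand of CCR1.

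The start regions of the members are shown because all 6 genes rose, though by differing folds, and 5 of them lie on chromosome 11. The 250 bases before the start were available for 4 of the 6 genes in RefSeq promoter sequences on GRCm38.p6, and Ccl4 and Ccl5 are named only. The annotated Ccl1 gene extends beyond the RefSeq start used here. Each is written 5′ to 3′ on the strand of its gene, the minus strand in every case. Capitals mark matches, on either strand, to TGANTCA (AP-1), GGAAA (the NFAT core), TGTGGT (RUNX), GGTGTGA (T-box), TATAAA (the TATA box) and the NF-kappaB consensus, given by name alone.
Ccl3 at chr11:83649379-83649628: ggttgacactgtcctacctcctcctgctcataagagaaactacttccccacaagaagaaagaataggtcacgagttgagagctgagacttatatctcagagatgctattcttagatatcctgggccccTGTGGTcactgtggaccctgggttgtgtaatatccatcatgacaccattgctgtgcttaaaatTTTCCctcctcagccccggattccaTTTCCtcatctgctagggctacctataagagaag
Xcl1 at chr1:164935523-164935772: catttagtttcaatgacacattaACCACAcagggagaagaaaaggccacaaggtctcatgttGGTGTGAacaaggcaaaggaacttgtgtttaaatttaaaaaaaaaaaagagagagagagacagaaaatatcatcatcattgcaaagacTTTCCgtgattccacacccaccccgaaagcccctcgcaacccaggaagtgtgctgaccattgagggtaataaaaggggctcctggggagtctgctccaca
Ccl9 at chr11:83578637-83578886: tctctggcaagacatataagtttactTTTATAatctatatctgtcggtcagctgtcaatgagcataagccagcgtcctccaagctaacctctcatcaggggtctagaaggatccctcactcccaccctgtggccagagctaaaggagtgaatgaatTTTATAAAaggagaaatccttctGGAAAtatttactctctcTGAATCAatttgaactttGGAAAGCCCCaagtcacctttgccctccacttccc
Ccl1 at chr11:82179813-82180062: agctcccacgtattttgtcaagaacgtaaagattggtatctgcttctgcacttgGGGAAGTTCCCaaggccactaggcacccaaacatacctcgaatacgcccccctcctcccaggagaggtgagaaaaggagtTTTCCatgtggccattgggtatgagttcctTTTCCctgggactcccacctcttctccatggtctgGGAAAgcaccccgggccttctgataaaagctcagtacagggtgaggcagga

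Each of the 4 windows held the NFAT core, a motif short enough to occur in 55.6% of all 32851 windows of the same length. It matched 2 times in Ccl3, 3 times in Ccl1, 2 times in Ccl9 and 1 time in Xcl1. The other motifs were not common to the 4 genes. NF-kappaB letters, present in 7.25% of all windows, matched at overlapping positions on both strands in Ccl1, 186 to 196 bases before the start. They also matched 26 to 35 bases before the start of Ccl9, where they overlapped an NFAT core. The AP-1 letters, in 6.75% of all windows, matched in Ccl9 alone, and the T-box letters, in 3.33%, in Xcl1 alone. RUNX letters, in 14.0% of all windows, matched 1 time each in Ccl3 and Xcl1. The TATA box letters, in 12.4%, matched among the 4 in Ccl9 alone, 219 to 224 and 87 to 94 bases before the start. These are matches of letters, and no binding was measured.

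All 6 chemokine mRNAs rose in DAHB, by 3.24-fold (Xcl1) to 13.0-fold (Ccl1). Of all 13804 genes tested, 58.5% were called in either direction and 29.4% higher in DAHB (limma-trend, Benjamini-Hochberg adjusted p under 0.05). Among all genes 10.6% were called and at least 2-fold higher, a size that all 6 members passed, and 1.97% at least 2-fold lower, as 0 members were. In all 6 genes every DAHB library lay above every NaCl library, which was so for 31.8% of all genes, and the reverse order held for 31.6% of all genes and 0 members. Their log2 fold changes, on the log2(normalised count + 1) scale, lay between 1.70 and 3.70 with a median of 2.88, against a median of 0.0019 over all genes tested. Counts are read counts per gene divided by a size factor for each library, so every rise here is relative to the bulk of genes. The libraries held 31055613 to 56007582 reads in the genes of the table, and the members were covered by 18 to 34258 reads per library.

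Ccl3 and Ccl4, which lie next to each other in opposite orientation, rose to some of the highest counts of the 6. Ccl3 (ENSMUSG00000000982, chromosome 11, 83647844 to 83649355, GRCm38, a protein-coding gene) had normalised counts of 33822, 36418 and 37056 in DAHB, against 2793, 3243 and 2954 in NaCl. The groups were far apart, with a mean of 35765 ± 1713 in DAHB and 2996 ± 228 in NaCl (SD, n = 3 each). The log2 fold change was 3.58 (SE 0.056, adjusted p = 1.59e-14). By mean count Ccl3 was the gene at rank 104 of the 13804 in DAHB and at rank 2720 in NaCl.

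Ccl4 (ENSMUSG00000018930, chromosome 11, 83662584 to 83664683) lies next to Ccl3 on the opposite strand. Its normalised counts were 14553, 14716 and 15763 in DAHB, against 2297, 2485 and 2417 in NaCl. In both groups the 3 libraries lay close together, at 15011 ± 657 in DAHB and 2399 ± 94.9 in NaCl (SD, n = 3 each). The log2 fold change was 2.64 (SE 0.048, adjusted p = 5.98e-14), 6.25-fold against 11.9-fold for Ccl3. The ratio of Ccl3 to Ccl4 counts within a library was higher in each DAHB library than in any NaCl library. Its log2 averaged 1.25 ± 0.048 in DAHB and 0.32 ± 0.057 in NaCl, a 1.91-fold difference between the responses of these neighbours (exact two-sided permutation p = 0.1, the smallest that 3 against 3 allows; 0.125 adjusted over 15 pairs of members).

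**Figure D1:**
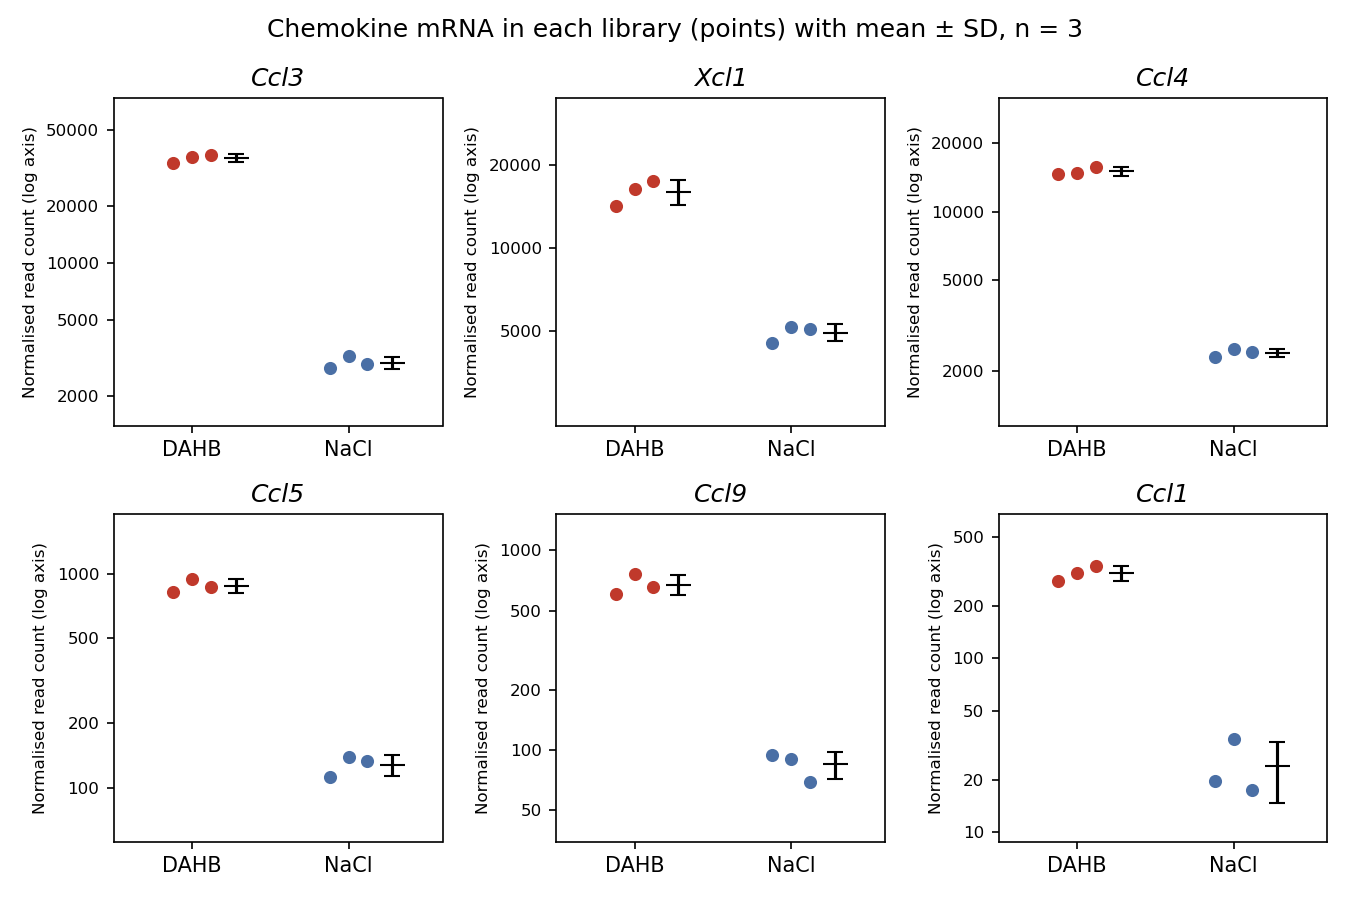
Normalised read counts (log axis) of the 6 chemokines in the 3 DAHB and 3 NaCl libraries, points for libraries and bars for mean ± SD. In each panel all DAHB points lie above all NaCl points, from 33822 against at most 3243 for Ccl3 to 278 against at most 34.3 for Ccl1.

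Xcl1 (ENSMUSG00000026573, chromosome 1, 164931644 to 164935527) rose least of the 6 but from a high level. Its normalised counts were 14251, 16425 and 17577 in DAHB, against 4542, 5188 and 5110.5 in NaCl. The means were 16085 ± 1689 in DAHB and 4947 ± 353 in NaCl (SD, n = 3 each), and the log2 fold change was 1.70 (SE 0.070, adjusted p = 2.12e-10). The predicted RNA gene Gm20743 runs across Xcl1 on the opposite strand. Whether exons of the 2 genes overlap was not examined. Without a stated strand setting, reads from any shared exon stretch could not be told apart. Gm20743 had 179 ± 43.5 in DAHB and 34.0 ± 1.04 in NaCl (log2 fold change 2.34, adjusted p = 1.58e-07), far fewer counts than Xcl1. None of the other 5 members overlapped another gene in the annotation.

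Ccl5 and Ccl9 had fewer counts than these 3 genes in both groups. Ccl5 (ENSMUSG00000035042, chromosome 11, 83525778 to 83530518) had normalised counts of 819.9, 949 and 868 in DAHB, against 112, 139 and 134 in NaCl. The libraries of each group clustered well apart from those of the other, with means of 879 ± 65.4 in DAHB and 128 ± 14.5 in NaCl (SD, n = 3 each). The log2 fold change of Ccl5 was 2.77 (SE 0.10, adjusted p = 7.67e-11). Ccl9 (ENSMUSG00000019122, chromosome 11, 83572919 to 83578636) had 606, 759 and 659 in DAHB, against 94.3, 90.6 and 69.2 in NaCl. NaCl replicate 3 was the lowest Ccl9 library, and no NaCl library came near the DAHB range. The Ccl9 means were 675 ± 77.7 in DAHB and 84.7 ± 13.5 in NaCl (SD, n = 3 each), and the log2 fold change was 2.99 (SE 0.13, adjusted p = 4.29e-10).

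Ccl1 was the least abundant of the 6 by count and had the largest fitted fold change. Ccl1 (ENSMUSG00000020702, chromosome 11, 82176657 to 82305690) had normalised counts of 278, 309 and 339 in DAHB, against 19.7, 34.3 and 17.5 in NaCl. NaCl replicate 2 stood above the other NaCl libraries, and the spread in NaCl was wide for the mean, 23.8 ± 9.11, against 309 ± 30.5 in DAHB (SD, n = 3 each). The log2 fold change was 3.70 (SE 0.22, adjusted p = 8.05e-09). Its SE was the largest of the 6, and its fold could not be set apart from that of Ccl3: the difference in log2 fold change was 0.12 (exact permutation p = 0.7; 0.7 adjusted over 15 pairs). That difference was -0.057 without NaCl replicate 3, -0.31 with a pseudocount of 10 and -0.24 under quantile normalisation.

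When genes were ordered by log2 fold change among the 10482 whose higher group averaged 100 or more, the rise of Ccl1 was at rank 28 and that of Ccl3 at rank 34. Ccl9, Ccl5 and Ccl4 followed at ranks 71, 90 and 105, and Xcl1 at rank 328. Ccl1 and Ccl9 reached a mean of 100 in DAHB only. Over all 13804 genes tested, Ccl1 was at rank 68, Ccl3 at 83 and Ccl9 at 163. In the same order Ccl5 was at 205, Ccl4 at 233 and Xcl1 at 703. The responses of the 6 members were compared as ratios within a library, over all 15 pairs. These pairs share genes and are not independent, and the share of non-overlapping ratios among pairs of other genes was not computed. For single genes, 31.8% of all genes had every DAHB library above every NaCl library, and 31.6% the reverse. In 12 pairs the ratio did not overlap between the groups (exact permutation p = 0.1, the smallest possible; 0.125 adjusted over the 15 pairs). In the other 3 it did: Ccl1 with Ccl3, Ccl5 with Ccl4 (difference 0.13, p = 0.5; 0.536 adjusted) and Ccl9 with Ccl5 (difference 0.21, p = 0.4; 0.462 adjusted), all by the exact permutation test. The fold of each of the other 5 members was larger than that of Xcl1, 1.93-fold so for Ccl4 and 3.99-fold for Ccl1, with no overlap in any of these 5 pairs.

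The summed chemokine mRNA was also compared. Together the 6 genes took 0.189%, 0.197% and 0.207% of the counted reads in the DAHB libraries, against 0.0282%, 0.0322% and 0.0306% in the NaCl libraries. Exact 95% binomial (Clopper-Pearson) intervals, which cover counting error only, ran from 0.187% to 0.190% for DAHB replicate 1, the lowest in DAHB, and from 0.0316% to 0.0328% for NaCl replicate 2, the highest in NaCl. The shares averaged 0.198% ± 0.0094 in DAHB and 0.0303% ± 0.0020 in NaCl (SD, n = 3 each; exact two-sided permutation p = 0.1, the smallest possible).

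Levels of different genes were compared per kilobase of annotated exon. In DAHB, Ccl3 came first with 46691 ± 2236 normalised counts per kilobase, followed by Xcl1 with 30755 ± 3229 and Ccl4 with 22744 ± 995 (SD, n = 3 each), with no overlap between neighbours in this order. In NaCl, Xcl1 came first with 9458 ± 675 per kilobase, above Ccl3 with 3912 ± 298 and Ccl4 with 3636 ± 144 (SD, n = 3 each), and the libraries of Ccl3 and Ccl4 overlapped. As a share of the 6 per kilobase, Ccl3 made up 46.1% ± 0.79 in DAHB and 22.8% ± 0.65 in NaCl, and Xcl1 30.3% ± 1.32 in DAHB and 55.0% ± 0.82 in NaCl (SD, n = 3 each). Ccl4 made up 22.4% ± 0.80 in DAHB and 21.2% ± 0.54 in NaCl, with overlapping libraries (exact permutation p = 0.2).

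The other 3 genes were far lower per kilobase in both groups. Ccl5 had 916 ± 68.1 in DAHB and 134 ± 15.1 in NaCl, Ccl9 222 ± 25.5 in DAHB and 27.8 ± 4.44 in NaCl, and Ccl1 130.2 ± 12.9 in DAHB and 10.1 ± 3.85 in NaCl (normalised counts per kilobase, SD, n = 3 each). Ccl1 and Ccl5 each have several annotated transcripts, and the length used matters for them. Per kilobase of the longest protein-coding transcript, Ccl1 had 505 ± 49.9 in DAHB and 39.0 ± 14.9 in NaCl, and Ccl9 had 224 ± 25.9 in DAHB and 28.2 ± 4.50 in NaCl. The order of Ccl9 and Ccl1 thus turned with the length chosen, while Ccl5 stayed above both at 1652 ± 123 in DAHB and 241 ± 27.2 in NaCl.

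**Figure D2:**
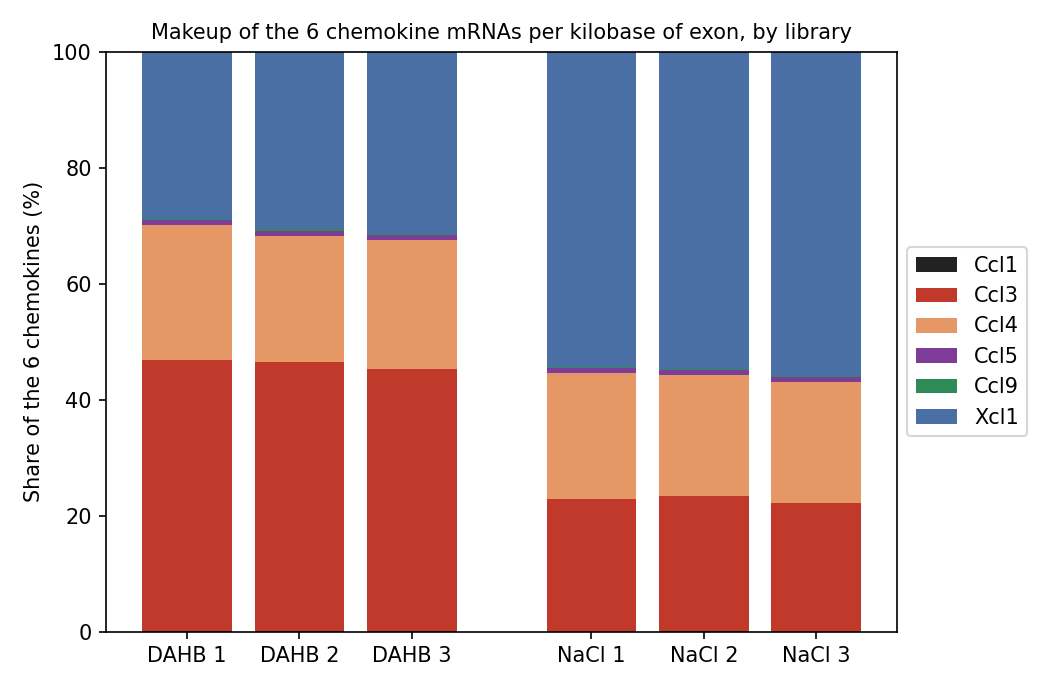
Share (%) of each chemokine in the summed normalised counts per kilobase of the 6, for the 3 DAHB and 3 NaCl libraries. Ccl3 averages 46.1% in DAHB and 22.8% in NaCl, and Xcl1 30.3% in DAHB and 55.0% in NaCl.

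Other chemokine ligands moved in both directions. Of 34 other chemokine ligand genes, 13 were in the table and tested; 2 of these rose, 5 fell and 6 did not pass, with a median log2 fold change of -0.82. Over all genes 29.4% were called higher and 29.1% lower. Of the ligands whose higher group averaged 100 or more, Ccl20, the ligand of CCR6, fell most. It had a normalised count of 351 ± 15.9 in DAHB and 1133 ± 60.7 in NaCl (SD, n = 3 each; log2 fold change -1.69, adjusted p = 3.09e-10). Ccl22, a ligand of CCR4, had 103 ± 10.5 in DAHB and 159 ± 13.0 in NaCl (log2 fold change -0.62, adjusted p = 0.00144). Cx3cl1, which encodes the membrane-bound chemokine fractalkine, rose to 107 ± 17.6 in DAHB, against 35.6 ± 7.86 in NaCl (log2 fold change 1.57, adjusted p = 2.13e-05).

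The remaining 4 calls, named to account for the counts after their values were seen, were on genes with few reads. The neutrophil attractant Cxcl2 fell to 9.47 ± 1.86 in DAHB, against 38.7 ± 2.97 in NaCl, and the interferon-induced Cxcl10 to 14.9 ± 3.78 in DAHB, against 57.4 ± 2.55 in NaCl (SD, n = 3 each). Ccl6 fell to 22.5 ± 5.04 in DAHB, against 40.4 ± 9.05 in NaCl (log2 fold change -0.82, adjusted p = 0.0197), and Ccl27a rose by a log2 fold change of 0.73 (adjusted p = 0.0149). Under quantile normalisation 1 of the 13 rose and 9 fell, and with a minimum count of 50 it was 1 and 3. The number that rose was also 1 without NaCl replicate 2 and without DAHB replicate 1.

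**Figure D3:**
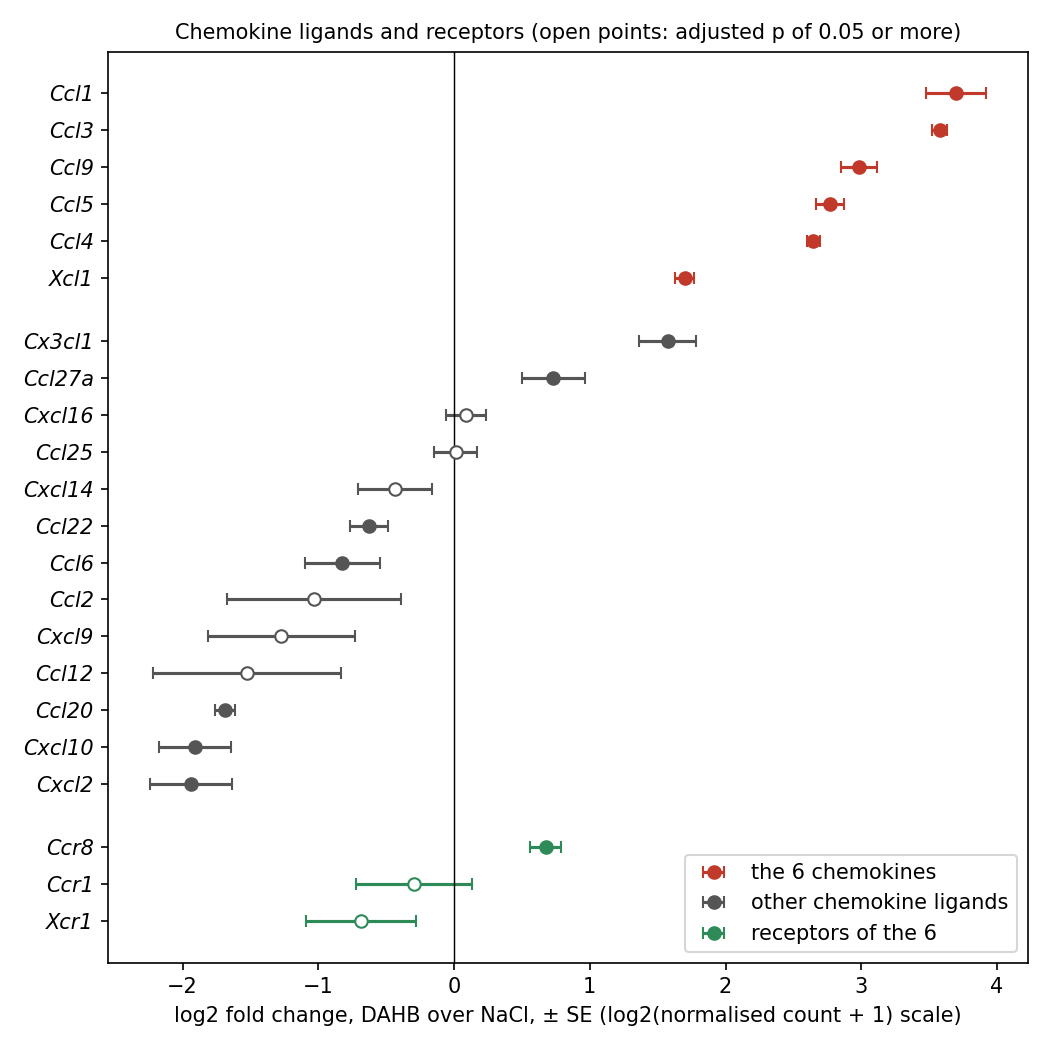
Log2 fold change (DAHB over NaCl) ± SE of the 6 chemokines, the 13 other chemokine ligands and 3 receptors of the 6 in the table; open points did not pass the test. The 6 lie between 1.70 and 3.70. Of the 13 other ligands 2 passed as higher and 5 as lower, against 29.4% and 29.1% of all genes. The lowest is the low-count Cxcl2 at -1.94.

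Of 6 genes for receptors of the members, 3 were in the table and tested, of which 1 rose and 0 fell. Over all genes 29.4% rose and 29.1% fell. Ccr8, the receptor for Ccl1, had 288 ± 38.3 in DAHB and 179 ± 10.1 in NaCl (SD, n = 3 each; log2 fold change 0.67, adjusted p = 0.000192). Ccr1, bound by Ccl3, Ccl5 and Ccl9, was at 19.4 ± 7.48 in DAHB and 25.3 ± 12.4 in NaCl (adjusted p = 0.583), and Xcr1, the receptor for Xcl1, at 9.79 ± 2.80 in DAHB and 16.6 ± 6.65 in NaCl (adjusted p = 0.164), so neither passed. Under quantile normalisation 1 of the 3 fell.

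Of 21 tested genes that act downstream of chemokine receptors, 8 rose and 6 fell, with a median log2 fold change of 0.06; over all genes 29.4% rose and 29.1% fell. Rasgrp2, an activator of the integrin-switching GTPase Rap1, rose to 291 ± 3.59 in DAHB, against 92.5 ± 8.97 in NaCl (SD, n = 3 each; log2 fold change 1.65). The G protein subunit gene Gng2, the GTPase gene Rac2, which drives actin assembly in migrating leukocytes, and the beta-arrestin gene Arrb1 rose by log2 fold changes of 0.74, 0.69 and 0.53. Of 13 genes for proteoglycans that hold chemokines and for the enzymes that build their sugar chains, 5 rose and 4 fell, against the same 29.4% and 29.1% of all genes. The syndecan gene Sdc4 fell to 309 ± 39.7 in DAHB, against 1236 ± 73.9 in NaCl (SD, n = 3 each; adjusted p = 5.58e-10). B4galt7, which builds the linker of the sugar chains, and the heparan sulfate sulfotransferase gene Ndst2 had log2 fold changes of -0.72 and -0.54. The chondroitin sulfotransferase gene Chst11 rose by 0.57.

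Of 25 tested genes for regulators of chemokine transcription, 8 rose and 11 fell, with a median log2 fold change of -0.01, against 29.4% of all genes that rose and 29.1% that fell. The T-box factor Eomes and the early growth response factor Egr2 rose by log2 fold changes of 1.75 and 1.32, and the AP-1 subunits Fosb and Jun had log2 fold changes of -2.11 and -1.32. Klf13, known as a late activator of the RANTES gene in human T cells and named after its value was seen, was at 4292 ± 187 in DAHB and 4312 ± 194 in NaCl (SD, n = 3 each; adjusted p = 0.922). Of 15 genes for regulators of AU-rich and stem-loop mRNA decay, in either direction, 9 fell and 1 rose, with a median log2 fold change of -0.20. Of all genes 29.1% fell and 29.4% rose. The falls were small. Zc3h12d had a log2 fold change of -0.46, the Roquin genes Rc3h1 and Rc3h2 of -0.36 and -0.32, and Zfp36, which encodes the AU-rich element binder tristetraprolin, of -0.35.

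AU-rich pentamers were unevenly spread over the members. In the 3′ untranslated region of the transcript with the longest coding sequence, ATTTA occurred 5 times in the 409 bases of Ccl3, 2 times in the 302 bases of Ccl4 and 1 time in the 141 bases of Xcl1. Per kilobase that was 12.2, 6.62 and 7.09, densities reached by 0.519%, 3.27% and 2.77% of 11938 tested genes, whose median was 1.23. By number alone, 19.9%, 47.2% and 67.1% of these genes held at least as many as Ccl3, Ccl4 and Xcl1, with a median of 1. The high densities of Ccl4 and Xcl1 thus came with few pentamers in short regions. Ccl9 held 5 in 2465 bases, a density of 2.03 that 34.0% of genes reached, and Ccl1 and Ccl5 held 0. The part of these pentamers in the levels was not tested.

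On chromosome 11 the genes of the table run in the order Ccl5, Ccl9, Ccl6, Ccl3 and Ccl4. Ccl6, between Ccl9 and Ccl3, fell, while the 4 members on either side of it rose by 6.25-fold to 11.9-fold. Beyond Ccl4, the protease inhibitor family gene Wfdc17 was at 9.84 ± 3.05 in DAHB and 16.7 ± 7.60 in NaCl (SD, n = 3 each; adjusted p = 0.187), and Heatr6 and Ddx52 fell, with small log2 fold changes of -0.16 and -0.17. Beyond Ccl5, Taf15 fell (log2 fold change -0.27), whereas the metalloprotease gene Mmp28 rose to 57.8 ± 3.20 in DAHB, against 1.73 ± 0.57 in NaCl (log2 fold change 4.45, adjusted p = 2.13e-07). The gene 1700020L24Rik, at only 1.36 ± 0.44 in NaCl, rose by 3.31.

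Ccl1 lies apart from this cluster, with Ccl2 and Ccl12 on one side, at 16.5 ± 12.5 and 7.37 ± 9.07 in DAHB, against 25.4 ± 8.91 and 16.2 ± 8.47 in NaCl (SD, n = 3 each). Neither passed the test (adjusted p = 0.185 and 0.0732), nor did Myo1d beyond them (log2 fold change -0.09, adjusted p = 0.722). On the other side Zfp830 and Lig3 fell, with log2 fold changes of -0.60 and -0.41, and Rffl did not pass (-0.14, adjusted p = 0.0923). Next to Xcl1 on chromosome 1, Atp1b1, which encodes a subunit of the sodium pump, rose by 0.99 and the low-count T-box gene Tbx19 by 3.65, while Sft2d2 and Tiprl had log2 fold changes of -0.18 and -0.20 and Nme7 did not pass (0.07, adjusted p = 0.445). Of the 19 neighbours that are not members, counting 3 tabled genes on either side of each member, 5 rose and 8 fell, with a median log2 fold change of -0.17, against 29.4% of all genes that rose and 29.1% that fell. Of those that rose, Mmp28, 1700020L24Rik and Tbx19 had means of 1.73, 1.36 and 1.88 in NaCl, against 57.8, 22.1 and 27.9 in DAHB. They passed the filter of 10 normalised counts through DAHB alone, so they could be called higher or not at all.

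**Figure D4:**
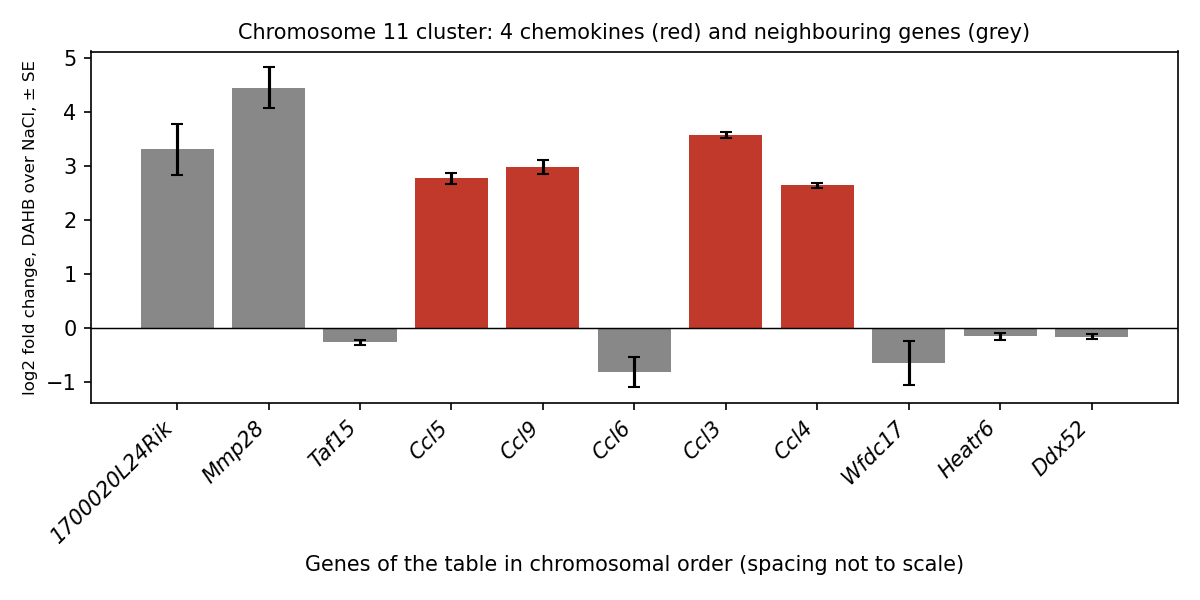
Log2 fold change (DAHB over NaCl) ± SE of 4 chemokines and the neighbouring genes of the table in their order on chromosome 11, with spacing not to scale. The members Ccl5, Ccl9, Ccl3 and Ccl4 rise by 2.64 to 3.58, while Ccl6 among them lies at -0.82.

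Other genes followed individual chemokines closely across the 6 libraries. Likeness was the root mean square difference of log2 values, each centred on its own mean, over 10137 named genes whose higher group averaged 100 or more. With 3 libraries a group, it reflects mainly a similar fold change. The nearest genes to Ccl4 were Igfbp4 (difference 0.086) and the granule membrane protein gene Cd63 (0.098), followed by Tead3 (0.11), and among members Ccl5 was nearest to Ccl4 (0.11). Nearest to Ccl3 were Mpzl2 (0.13), Igsf23 (0.13) and Ltbp3 (0.14). Ccl9 was closest to Selenom (0.082), the lymphotoxin gene Lta (0.15) and Tesc (0.16), and Xcl1 to the galectin gene Lgals3 (0.081), the transcriptional inhibitor gene Id2 (0.097) and Tnnt1 (0.097). Ccl5 was closest to Lgals7 (0.077), Plppr2 (0.094) and Syngr3 (0.13), and Ccl1 to Acvrl1 (0.20), Grb7 (0.21) and H2-DMb2 (0.23).

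Several of these chemokines are also made by macrophages and other cells, so markers of such cells were read in the same libraries. All 7 CD8 T cell markers were in the table, and their summed normalised counts were 49995 to 52957 in DAHB and 42899 to 43637 in NaCl. Of these 7, Cd8a, Cd8b1 and Cd3g rose (log2 fold changes 0.59, 0.51 and 0.13), Trac and Cd3d fell (-0.31 and -0.20), and 2 did not pass. For this and the marker counts that follow, the shares over all genes were 29.4% higher and 29.1% lower. All 7 macrophage and monocyte markers were in the table, summing to 1399 to 1682 in DAHB and 713 to 1312 in NaCl, and 3 of the 7 rose. These were Cd68, Lyz2 and Adgre1, with log2 fold changes of 1.06, 0.67 and 0.54, though the Lyz2 libraries overlapped between the groups. The receptor gene Csf1r did not pass, with 166 ± 31.3 in DAHB and 125 ± 62.6 in NaCl (SD, n = 3 each; adjusted p = 0.148). The other 3 did not pass either, with log2 fold changes of -0.0026 for Itgam, -0.25 for Fcgr1 and -0.44 for Cd14, whose DAHB libraries all lay below its NaCl libraries. Of 6 dendritic cell markers 3 were in the table, with sums of 2092 to 2292 in DAHB and 1839 to 2004 in NaCl. Batf3 made up most of these sums. Itgax and Batf3 rose (log2 fold changes 1.47 and 0.34), and Zbtb46 fell (-0.54). Itgax had few counts, 27.5 ± 6.58 in DAHB and 12.3 ± 11.6 in NaCl (SD, n = 3 each), and its libraries overlapped between the groups. Of 6 B cell markers 1 was in the table, Cd79b, at 549 to 623 in DAHB and 118 to 149 in NaCl. Of 4 CD4 T cell markers 3 were in the table (1561 to 1885 in DAHB and 659 to 675 in NaCl), and of 5 stromal and endothelial markers 4 (1440.1 to 1471 in DAHB and 782 to 865 in NaCl). Most of these sums came from Zbtb7b and Pecam1. Cd4 and Zbtb7b rose (log2 fold changes 2.51 and 1.38), and Cd40lg did not pass (0.06). Pdgfrb and Pecam1 rose (1.64 and 0.86), and Col1a1 and Col3a1 did not pass (0.25 and -0.40). None of 4 NK cell, 4 neutrophil or 5 mast cell and basophil markers was among the genes of the table. The part of other cells in the rise of the chemokines was not tested, and in bulk RNA more cells of a type and more RNA per cell cannot be told apart. Bulk RNA also does not show which cells, the CD8 T cells included, held the mRNA of a marker.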

How the data were processed

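Values were analysed for 6 RNA-seq libraries, 3 per group, grouped by the treatment in the labels. The submitters' processing notes name the build GRCm38 and the tools STAR 2.5.2b, Trimmomatic 0.36, DESeq2 and featureCounts 1.5.2; the annotation release, strand setting and gene filter are not given in the sources used here. The authors deposited a normalised signal: per gene, reads over a library's size factor. In each library 100% of values were whole multiples of 1 read (tolerance 0.001), which gave back reads; the depth was 31055613 to 56007582 reads. The lowest sum of any gene was 61 reads, so absence from the table is no measurement. Replicates were not duplicates of each other (chi-square over its degrees of freedom, 4.64 to 17.5).

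Genes with at least 10 normalised counts in at least 3 libraries (13804) were tested as log2(normalised count + 1) with limma-trend (limma 3.58.1, R 4.3.3). The test was two-sided and Benjamini-Hochberg adjusted over all of them, at a threshold of 0.05. Fold changes on this log2 scale understate those of genes with few reads. All adjusted p-values of genes are from this test. The procedure was tried on simulated data with far fewer changed genes than were called here, so not under a shift of this breadth. Ratios and shares were compared by exact permutation tests, all two-sided. Coordinates, exon lengths and gene order are those of GENCODE M21 (13854 genes matched). 1 gene was left out of the receptor list and 1 gene out of the macrophage and monocyte markers, and both are not reported here. The members, lists and tests were chosen with earlier results of these data known. The members are named whatever their values; of each list up to 4 genes were named, those with the greatest change in either direction that passed and whose higher group averaged 100 or more, and the other receptors, the neighbours and the 3 most alike genes of each member in full, except where stated. Alternatives tried were a pseudocount of 0.5 or 10, a minimum of 50 or no filter, quantile normalisation, equal totals, a robust prior, a replicate block, each library left out, and edgeR 4.0.16 and DESeq2 1.42.0 on the recovered reads; the transcript length was added after seeing the data. Tables and exact tests used scipy 1.17.1 and pandas 2.3.3 in Python 3.11.15, and figures matplotlib 3.10.9.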

Additional observations from a re-analysis of the deposited data

How the results depend on the processing

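All 6 chemokines stayed higher in DAHB and past the threshold under all 16 alternatives. The log2 fold change lay between 3.26 and 3.98 for Ccl1, 3.53 and 3.64 for Ccl3, 2.61 and 2.71 for Ccl4, 2.60 and 2.83 for Ccl5, 2.74 and 3.07 for Ccl9, and 1.63 and 1.78 for Xcl1. The highest adjusted p of any of them was 5.92e-07, for Ccl1 without DAHB replicate 3. Calls over all genes numbered 4052 higher and 4019 lower. They ranged over the alternatives from 3430 to 4134 higher and from 3585 to 4423 lower. On recovered reads edgeR called 4126 higher and 3958 lower, and DESeq2 3842 and 3828.

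Same-numbered libraries did not deviate together (correlations of -0.0488, -0.154 and 0.0405), and not every library correlated best with its own number. With 3 libraries a group, this cannot show whether same-numbered samples shared a mouse or culture. With the replicate number as a block 3931 genes were higher and 3841 lower, and no call on the 6 chemokines changed.

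The difference in log2 fold change between Ccl1 and Ccl3 reversed to -0.31 with a pseudocount of 10 and to -0.24 under quantile normalisation, and ranged from -0.0572 to 0.34 when a library was left out. That between Ccl5 and Ccl4 reversed to -0.10 under quantile normalisation. The other 13 pairs kept their direction. Of the other chemokine ligands, 1 was higher and 3 lower with a minimum count of 50, where fewer genes are tested, and 1 higher and 9 lower under quantile normalisation, where 1 receptor of the members was also lower. With a library left out, 1 to 2 of these ligands were higher. The number of genes for regulators of mRNA decay that were higher ranged from 0 to 2. The cause of these changes was not tested. Ccl1 had 18, 31 and 28 reads in the NaCl libraries, which limits the precision of its fold.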
